A study of Rattus norvegicus with 16 samples.

Results

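Livers of weanling rats whose mothers had been given the higher dose of a mixture of environmental contaminants (M) were compared with livers of rats whose mothers had received the oil vehicle (C). The rule took the arrays titled for these groups at 21 days of age, which gave 8 of the 16 arrays of the series, 4 from M and 4 from C. Pups were male Sprague-Dawley rats that stayed with their own mothers, and each array held liver RNA of 2 pups of a group pooled at random, so that 8 pups stand behind each group. M mothers were dosed with 1.0 mg/kg/day of organochlorine pesticides, polychlorinated biphenyls and methylmercury dissolved in corn oil, through pregnancy and nursing. The same mixture at 0.5 mg/kg/day made the 0.5M group, and the AhR group received dioxin-like agonists of the aryl hydrocarbon receptor at 1.8 ng/kg/day in dioxin equivalents. C mothers received corn oil only. Every array paired Cy5-labelled liver RNA with a Cy3-labelled universal rat reference RNA, and each value below is log2(Cy5/Cy3) of a transcript on an array unless a difference is named. What each pup took in was set by its mother, and the labels do not say which pups were littermates, so p-values measure the spread between arrays of pooled pups and, were littermates spread over arrays, would understate the error.

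Liver clears foreign compounds in steps. Cytochromes P450, fed with electrons by partner proteins of the endoplasmic reticulum, oxidise them, and transferases then attach glucuronic acid, glutathione or sulfate so that carriers can export them. Genes of this machinery are switched on by ligand-bound receptors: the aryl hydrocarbon receptor answers flat dioxin-like molecules, whereas CAR and PXR answer phenobarbital-like compounds, many chlorinated pesticides and biphenyls among them.

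The liver identity of the samples was clear on every array, with at least 9 of 10 hepatocyte markers well above background in Cy5. Between 7082 and 13824 of 30367 probes stood well above background on the arrays of slide 1 (replicates 1 and 2 of each group, here M 1, M 2, C 1, C 2 and so on), and between 13006 and 15686 on those of slide 2 (replicates 3 and 4). Some arrays held transcripts of other tissues. The summed Cy5 signal of 21 skeletal muscle markers was 125450 on M 2 and 1774 to 3829 on the other M arrays, against 1670 to 2791 on the C arrays, and it was also high on 0.5M 4 (145245). On the same M 2 array, 16 markers of stellate cells and fibroblasts summed to 42911, with 15805 to 18405 on the other M arrays, against 16291 to 19695 on the C arrays, and to 29365 on 0.5M 4. M 1 had 11 of 19 markers of the exocrine pancreas above background and AhR 2 had 12, against 1 to 5 on every C array, and C 2 had the most fat markers (9 of 10). Markers of bile duct cells summed to 1229 to 1306 in M and to 1403 to 2029 in C, without overlap, while Cftr and Cldn4 of that list were above background on no array and Spp1 on 0 M and 2 C arrays. No marker of any of the 10 cell type lists was called in M against C, although the 10 muscle markers tested had a median difference of 1.51 and the 14 tested of stellate cells and fibroblasts one of 0.27. In such bulk samples, fewer cells of a type and less RNA per cell cannot be told apart. The part of these tissues in the results was not tested, and results without the 5 arrays follow after the gene groups.

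**Figure D1:**
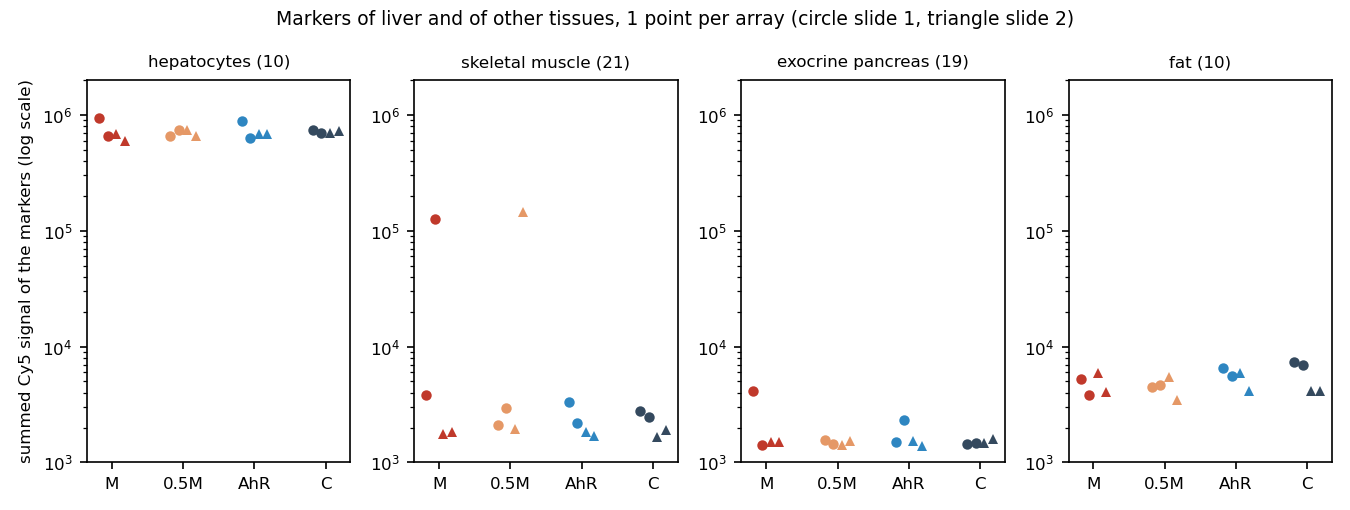
Summed Cy5 signal (log scale) of markers of hepatocytes, skeletal muscle, exocrine pancreas and fat on each of the 16 arrays, by group. Hepatocyte markers summed to 589771 to 945861 in M and to 692703 to 741737 in C, whereas muscle markers were high on M 2 and 0.5M 4 and pancreas markers on M 1 and AhR 2.

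The comparison of M with C asks how the higher dose of the mixture changed the liver transcriptome of the pups. Of 13146 transcripts, 42 passed the limma test at an adjusted p of 0.05 (0.319%), 34 higher in M (0.259%) and 8 lower (0.0609%). The rises that carry a gene symbol included P450s, their electron partners, glucuronosyl- and glutathione transferases and carboxylesterases. The rises were the larger changes, with a median of 2.06-fold, against 1.49-fold for the falls. Of the 42, 30 have a symbol (26 higher, 4 lower), and 24 of these 30 (80%) sit in at least 1 of the 34 gene lists, against 6.73% of the 8562 transcripts with a symbol. The lists were drawn up with earlier results of these data known, so nothing is read from that share, and the list counts below have the same limit. In 40 of the 42 the M arrays did not overlap with the C arrays, which was so for 4.19% of all transcripts (2.12% with M above, 2.07% with M below). All 42 had the same sign on slide 1 as on slide 2, which is likely for transcripts picked by a fit over both slides. The count depends on how the dyes of each array are balanced: with median centring in place of the intensity-dependent loess curve Cyp1a1 alone was called, and with the scanner software's own ratios 20 were. Among all transcripts 1334 (10.1%) had an unadjusted p under 0.05, and the median difference was -0.0019 (-0.088 with median centring). Of the 13146, 6492 were higher in M and 6654 lower.

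**Figure D2:**
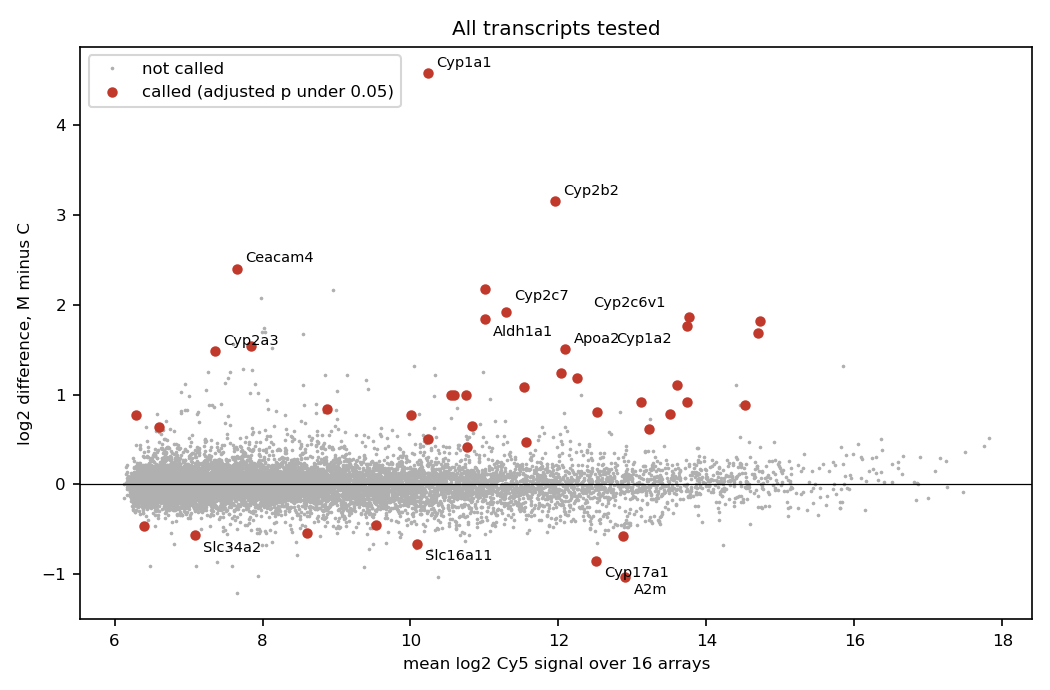
Log2 difference between M and C (vertical axis) against mean log2 Cy5 signal over 16 arrays (horizontal axis) for 13146 transcripts. The 42 called transcripts, in colour, include dim and bright transcripts, with the rises of Cyp1a1, Cyp2b2 and Ceacam4 at the top and A2m and Cyp17a1 at the bottom.

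The aryl hydrocarbon receptor list had 7 genes on the arrays, of which 4 rose, against 0.259% of all transcripts, and its median was 0.89. Cyp1a1, the P450 with which this receptor is most closely tied, had log2 ratios of 2.86, 2.89, 2.94 and 3.05 on the M arrays, against -1.08, -1.76, -1.74 and -2.01 on the C arrays. The 4 M arrays lay closer to each other (SD 0.083) than the C arrays (SD 0.39), C 1 being the highest of C, and the difference was 4.58 ± 0.18 (SE; adjusted p = 6.55e-10). Cyp1a2, which hydroxylates aromatic amines, had 2.61, 1.99, 2.16 and 2.21 in M, against 0.89, 0.031, 0.44 and 0.58 in C. Ugt1a6, which attaches glucuronic acid to small phenols, had 1.56, 1.23, 1.43 and 1.55 in M, against -0.022, 0.59, 0.56 and 0.23 in C. All M arrays stood above all C arrays for both, and the Cyp1a2 difference was 1.76 ± 0.17 (adjusted p = 3.56e-05). The Ugt1a6 difference was 1.103 ± 0.14 (SE, n = 4 arrays per group; limma adjusted p = 6.66e-04), with 0.75 at another of its probes. Cyp1b1, a P450 of estrogen and polycyclic hydrocarbon metabolism, had 0.21, 0.54, 1.13 and 0.96 in M, against 0.12, 0.015, -0.17 and -0.22 in C. It was above background on 3 of the 4 M arrays and on no C array, so that the size of its rise is not well known. The fitted rise of Cyp1b1 was 1.71-fold (limma adjusted p = 0.0497), with log2 differences of 0.303 on slide 1 and 1.24 on slide 2. Its call was lost without any of 14 of the 16 arrays in turn (adjusted p up to 0.222) and with the replicate number as a block (adjusted p = 0.0842). The quinone reductase Nqo1 stood at 0.89 (adjusted p = 0.0710), and Cyp2s1 and Xdh at 0.11 and -0.031.

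Among 17 genes listed for CAR and PXR, 6 rose and none fell, against 0.259% and 0.0609% of all transcripts. The list median was 0.73 (0.43 with median centring of the arrays, against -0.088 over all transcripts), and 7 were called with the replicate number as a block. Cyp2b2, the classical phenobarbital-inducible P450 of rat liver, had 3.26, 1.82, 2.65 and 2.63 in M, against -0.69, -0.35, -0.601 and -0.62 in C. M 1 was the highest and M 2 the lowest M array, both far above C, and the difference was 3.16 ± 0.22 (adjusted p = 1.19e-06). Its second probe, above background on 16 of 16 arrays, gave 2.02. Cyp2c6v1 and Cyp3a23-3a1 rose by 1.86 ± 0.17 and 1.08 ± 0.17 (SE; adjusted p = 3.56e-05 and 0.00722), with C 1 the lowest of the C arrays for the second. Aldh1a1, an aldehyde dehydrogenase that makes retinoic acid from retinal, had 1.999, 1.52, 1.99 and 1.76 in M, against -0.102, 0.15, 0.597 and -0.73 in C. The C arrays differed by more than a log2 unit among themselves, and the M arrays by less. The difference was 1.84 ± 0.28 (adjusted p = 0.00674). Of 18 aldehyde and alcohol dehydrogenases matched by symbol, out of 24 listed, Aldh1a1 alone was called, against 0.319% of all transcripts. The median of the 18 was 0.0015. Called transcripts without a symbol could not be counted in this or any list. Ephx1, the microsomal epoxide hydrolase, stood at 1.26 without passing (adjusted p = 0.0641), with M 2 (-0.59) and C 3 (-0.32) apart from their groups. Alas1, the first enzyme of heme synthesis, had 2.22, 1.21, 0.43 and 1.21 in M, against 0.0027, 0.36, 0.13 and 0.14 in C. Although its groups did not overlap, it did not pass (difference 1.11 ± 0.304, adjusted p = 0.178), and none of the 13 heme genes did.

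Beyond the P450 families just named, 2 of 20 further P450s of foreign compounds rose, against 0.259% of all transcripts. Cyp2a3, a P450 best known from the nasal and lung tissue of rats, had 0.66, 1.44, 2.42 and 1.86 in M, against 0.073, 0.103, 0.036 and 0.23 in C. Every M array was above every C array, yet M varied widely (SD 0.74, against 0.086 in C), and the difference was larger on slide 2 (2.01) than on slide 1 (0.96). The fitted rise was 2.798-fold (log2 1.48 ± 0.23, adjusted p = 0.00789), and 3 of 4 C arrays had it above background. Cyp2c7, more abundant in female than in male adult rat liver, had -2.09, -2.83, -2.36 and -3.02 in M, against -4.198, -4.48, -4.26 and -5.03 in C. No M array overlapped with C, the difference was 1.91 ± 0.201 (adjusted p = 1.25e-04), and its other probes gave 1.86 and 2.79. Cyp2c7 was the 1 call among 23 measured genes patterned by sex in adult rat liver, against 0.319% of all transcripts. The median of that list was 0.25 on slide 1 and -0.18 on slide 2.

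Of 11 genes that supply P450s with electrons or NADPH, 2 rose (against 0.259% of all transcripts), both small membrane proteins that bind P450s. Cyb5a, cytochrome b5, which passes an electron to P450s, had 0.71, 0.62, 0.19 and 0.103 in M, against -0.47, -0.35, -0.68 and -0.54 in C. No array of either group crossed into the other, and the rise was 1.89-fold (log2 0.91 ± 0.11, adjusted p = 3.27e-04). Pgrmc1, a heme-binding partner of P450s, had -0.76, -0.71, -0.44 and -0.49 in M, against -1.31, -1.13, -0.84 and -1.002 in C. Its rise was small (1.38-fold, adjusted p = 0.0459), its other probes gave 0.24 and 0.35, and its call was lost without any of 12 of the 16 arrays in turn (adjusted p up to 0.182). Por, the main P450 reductase, stood at 0.11 (adjusted p = 0.886).

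Glucuronidation was the transferase family in which every measured gene lay on the same side. All 12 measured glucuronosyltransferases and enzymes of their cofactor supply were higher in M, with a median of 0.43, against 6492 of 13146 transcripts higher. Of the 12, 3 were called as rises, against 0.259% of all transcripts. With median centring of the arrays the 12 became 10 of 12, with a median of 0.19, against -0.088 over all transcripts. They became 11 of 12 with the scanner's own ratios. Ugt2b1, a transferase of steroids and drugs, had 1.02, 0.97, 1.47 and 1.98 in M, against -0.26, 0.23, 0.44 and 0.29 in C. Ugt2b15, whose human namesake conjugates androgens, had -0.88, -0.78, -0.72 and -0.804 in M, against -1.92, -1.51, -1.09 and -1.14 in C. The M arrays of Ugt2b15 lay within 0.16 of each other while C 1 and C 2 were the low C arrays. The rises were 2.28-fold and 1.54-fold (log2 1.19 ± 0.22 and 0.62 ± 0.11, adjusted p = 0.0261 for both). Ugt2b37 stood at 0.67 (adjusted p = 0.0593), and the enzymes that make the sugar donor stood at 0.39 (Ugdh, which makes UDP-glucuronic acid, adjusted p = 0.0710) and 0.48 (Ugp2, which makes UDP-glucose, adjusted p = 0.116). The call of Ugt2b1 was lost without C 1, C 3, C 4, M 3 or M 4 (adjusted p up to 0.110) and that of Ugt2b15 without C 2, M 1, M 2 or M 3 (up to 0.0886). Probes of close family members can bind each other's RNA, which was not tested.

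Of 21 measured glutathione transferases 3 rose and none fell, against 0.259% and 0.0609% of all transcripts. Higher in M were 14 of the 21, against 6492 of 13146 transcripts. The list median was 0.29 (0.068 with median centring of the arrays, against -0.088 over all transcripts), and 4 were called with the replicate number as a block. Gsta4, which conjugates the lipid peroxidation product 4-hydroxynonenal, had 1.17, 0.58, 0.92 and 1.04 in M, against 0.21, 0.204, 0.21 and -0.028 in C. Gstm2, of the mu class, had -0.63, -0.998, -0.77 and -0.69 in M, against -2.01, -1.84, -1.88 and -1.34 in C. Gsta3, of the alpha class, had 0.24, -0.032, 0.082 and -0.074 in M, against -1.52, -0.53, -0.54 and -0.88 in C. In all 3 the groups stood apart, M 2 was the lowest M array for Gsta4 and Gstm2, and C 1 fell well below the other C arrays for Gsta3. The folds were 1.72, 1.99 and 1.89 (adjusted p = 0.0105, 0.0174 and 0.0264), and a second probe of Gsta3 gave a log2 difference of 0.69. Gsta5 (1.32, adjusted p = 0.137) and Gsta1 (0.89, adjusted p = 0.121) did not pass. Gsta4 lost its call without C 4 (adjusted p = 0.0631), Gstm2 without C 1, C 3 or M 1 (up to 0.0747) and Gsta3 without C 4, M 1, M 3 or M 4 (up to 0.108).

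NRF2 governs genes of the antioxidant response. Leaving aside glutathione transferases, none of its 20 targets on the arrays passed. Of these, 16 were higher in M with a median of 0.22, against 6492 of 13146 transcripts higher. The count and median became 9 of 20 and -0.028 with median centring of the arrays, against a median of -0.088 over all transcripts. With the replicate number as a block 1 was called. Of 8 sulfotransferases and cofactor enzymes none passed, and 6 were lower. Sult1b1, which sulfates thyroid hormone, was the exception in size, with -0.74, -1.501, -1.01 and -1.38 in M, against -2.44, -2.53, -1.75 and -2.77 in C. It missed the threshold at a difference of 1.22 ± 0.26 (adjusted p = 0.0641) and passed with the replicate number as a block (adjusted p = 0.00451).

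Promoter sequences (250 bases before and 50 after the annotated start, RefSeq, build GRCr8) were at hand for 24 of the 30 called genes with a symbol. Aryl hydrocarbon receptor complexes are known to bind DNA at the core GCGTG. Shown here are 4 called genes of different roles outside the P450s, chosen among those whose window holds this core. Capitals mark GCGTG, or CACGC where the core lies on the other strand. They are Ugt1a6 (chr9:96194768-96195067, plus strand), Gsta4 (chr8:87947015-87947314, plus strand), Pbld1 (chr20:25564252-25564551, minus strand) and Lyplal1 (chr13:100189285-100189584, minus strand).
Ugt1a6: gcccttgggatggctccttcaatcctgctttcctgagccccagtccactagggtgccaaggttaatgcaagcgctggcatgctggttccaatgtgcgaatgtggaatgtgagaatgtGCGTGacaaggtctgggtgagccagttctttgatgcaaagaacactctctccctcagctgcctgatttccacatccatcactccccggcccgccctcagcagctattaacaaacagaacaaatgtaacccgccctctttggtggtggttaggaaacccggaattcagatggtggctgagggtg
Gsta4: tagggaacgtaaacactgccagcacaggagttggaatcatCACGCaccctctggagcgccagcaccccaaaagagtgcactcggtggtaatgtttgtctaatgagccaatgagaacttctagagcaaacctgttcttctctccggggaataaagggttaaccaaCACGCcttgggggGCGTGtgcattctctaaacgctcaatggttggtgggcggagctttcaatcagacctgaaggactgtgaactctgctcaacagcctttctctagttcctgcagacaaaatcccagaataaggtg
Pbld1: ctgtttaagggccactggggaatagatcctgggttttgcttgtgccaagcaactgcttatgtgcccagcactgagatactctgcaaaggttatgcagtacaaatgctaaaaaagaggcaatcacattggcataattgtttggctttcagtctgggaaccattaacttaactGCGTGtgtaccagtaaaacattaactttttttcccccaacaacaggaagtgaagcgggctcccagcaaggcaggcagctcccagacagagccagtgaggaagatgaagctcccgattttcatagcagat
Lyplal1: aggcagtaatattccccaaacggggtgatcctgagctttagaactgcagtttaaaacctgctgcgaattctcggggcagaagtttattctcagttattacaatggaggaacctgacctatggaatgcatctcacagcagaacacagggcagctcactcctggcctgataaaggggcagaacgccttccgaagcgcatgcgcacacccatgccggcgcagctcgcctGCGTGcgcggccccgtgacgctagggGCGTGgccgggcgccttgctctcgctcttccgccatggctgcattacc
Counted from the start site, the core lies from -133 to -129 in Ugt1a6 and from -79 to -75 in Pbld1. Gsta4 holds it 3 times, starting at -210, -86 and -73, and Lyplal1 holds it starting at -24 and at 2. On either strand, GCGTG was in 9 of the 24 promoters (37.5%), against 29.7% of 33469 rat promoters of the same length. The antioxidant response element core TGACNNNGC was in 3 of the 24 (12.5%), against 12.1% of all. In AhR against C, Ugt1a6, Gsta4, Pbld1 and Lyplal1 stood at 0.38, 0.069, 0.28 and 0.031, none of them called. The motif matches describe letters in a short window and show no binding.

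Of 20 measured carboxylesterases and other hydrolases of foreign compounds, 2 rose, against 0.259% of all transcripts. Another gene named for its likeness to carboxylesterases, Cesl1, rose outside the list. Ces1c, a carboxylesterase, had 0.62, 0.016, 0.46 and 0.27 in M, against -0.49, -0.63, -0.32 and -0.72 in C. Cesl1 had -0.23, -0.699, -0.32 and -0.12 in M, against -1.61, -1.31, -1.04 and -1.39 in C. Lyplal1, a lysophospholipase-like hydrolase, had 0.35, 0.36, 0.36 and 0.496 in M, against -0.048, -0.065, 0.17 and -0.15 in C. In each the groups stood apart, with M 2 the lowest M array of Ces1c and Cesl1, and M 4 the highest of Lyplal1. The rises were 1.84-fold for Ces1c (adjusted p = 0.0261; 0.49 as a log2 difference at another probe), 1.99-fold for Cesl1 (adjusted p = 0.0373) and 1.33-fold for Lyplal1 (adjusted p = 0.047). Ces2e, another carboxylesterase, stood at -1.21 ± 0.62 with an adjusted p of 0.527, its difference being -2.08 on slide 1 and -0.34 on slide 2. With the replicate number as a block Cesl1 and Lyplal1 were no longer called (adjusted p = 0.0511 each), and leaving out 1 array ended the call of Ces1c without C 2, C 3, C 4, M 1 or M 3 (up to 0.115), of Cesl1 in 10 of 16 cases (up to 0.177) and of Lyplal1 in 14 of 16 (up to 0.205).

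Other called genes lay outside drug metabolism. Ceacam4, a cell adhesion molecule of the carcinoembryonic antigen family, had 2.11, 1.33, 2.55 and 2.32 in M, against -0.22, -0.27, -0.53 and -0.27 in C. The lowest M array, M 2, was still more than a log2 unit above every C array, and 3 of 4 C arrays had the transcript above background. The difference was 2.401 ± 0.18 (adjusted p = 2.14e-06). Tsku, a secreted leucine-rich proteoglycan, had 1.403, 0.94, 0.51 and 1.15 in M, against -0.52, 0.17, -0.47 and -0.14 in C. Its rise was 2.37-fold (log2 1.24 ± 0.199, adjusted p = 0.00839) and kept its call when any single array was left out. Pbld1, a protein with a phenazine biosynthesis-like domain, had 0.15, 0.198, 0.43 and 0.51 in M, against -0.45, -0.54, -0.44 and -0.54 in C. Both groups were tight, and the rise of 1.75-fold (log2 0.81 ± 0.105) had an adjusted p of 0.00119. Mmgt1, a subunit of the membrane protein insertion complex of the endoplasmic reticulum, had 0.14, 0.14, 0.31 and 0.54 in M, against -0.40, -0.17, -0.074 and -0.24 in C. It rose 1.42-fold (adjusted p = 0.00839), while its second probe, above background on 0 of 16 arrays, gave 0.069. Entpd5, a nucleoside diphosphatase that supports glycoprotein folding in the endoplasmic reticulum, had 0.12, -0.27, 0.19 and 0.49 in M, against -0.87, -0.47, -0.47 and -0.75 in C. Its rise was 1.71-fold (log2 0.77 ± 0.14, adjusted p = 0.0187) and lost its call without C 1, C 4, M 1, M 3 or M 4 (up to 0.0937). Of 22 measured genes of the unfolded protein response none was called, and their median was 0.0022.

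Apoa2, a protein of high-density lipoprotein, had -1.76, -3.06, -2.01 and -3.01 in M, against -4.01, -3.85, -3.74 and -4.26 in C. M 1 and M 3 were high and M 2 and M 4 lower, all above C, and the difference was 1.504 ± 0.26 (adjusted p = 0.0162). It was the 1 member called among 24 apolipoproteins and lipoprotein genes, against 0.319% of all transcripts. Of the 24, 19 were lower in M (median -0.15), against 6654 of 13146 transcripts lower. The median of apolipoproteins and lipoprotein handling was -0.28 without M 1, -0.235 without C 2, -0.29 on slide 2 alone and -0.31 without the 5 arrays with other tissues. With median centring it was -0.48, against -0.088 over all transcripts. The call of Apoa2 was lost without C 1, C 4, M 1 or M 3 (up to 0.0796).

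The 4 falls with a symbol were a protease inhibitor, a steroid P450 and membrane carriers. A2m, alpha-2-macroglobulin, had 0.79, 0.34, 0.61 and 0.91 in M, against 1.61, 1.85, 1.59 and 1.74 in C. Every M array was below every C array, the difference was -1.04 ± 0.16 (adjusted p = 0.00722), and its second probe gave -1.09. Among 31 measured acute phase genes A2m was the 1 called, against 0.319% of all transcripts. Cyp17a1, which makes androgen precursors, had 0.88, 0.69, 0.302 and 0.63 in M, against 1.804, 1.21, 1.21 and 1.68 in C. C 1 and C 4 were the high C arrays, M 3 the lowest M array, and the difference was -0.85 ± 0.13 (adjusted p = 0.00722). Cyp17a1 was the 1 call among 27 genes of steroid synthesis and breakdown, against 0.319% of all transcripts. Slc16a11, of the monocarboxylate carrier family, had -0.09, 0.26, 0.44 and 0.34 in M, against 0.79, 0.65, 1.15 and 1.01 in C. Slc34a2, a sodium phosphate carrier, had -0.091, -0.24, -0.16 and -0.27 in M, against 0.12, 0.27, 0.57 and 0.55 in C. The differences were -0.66 ± 0.10 and -0.57 ± 0.11 (SE; adjusted p = 0.00674 and 0.0402), without overlap of the groups, and 2 of 4 M arrays had Slc34a2 above background. The call of Slc34a2 was lost with the replicate number as a block (adjusted p = 0.0623) and without any of 9 of the 16 arrays in turn (up to 0.182).

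**Figure D3:**
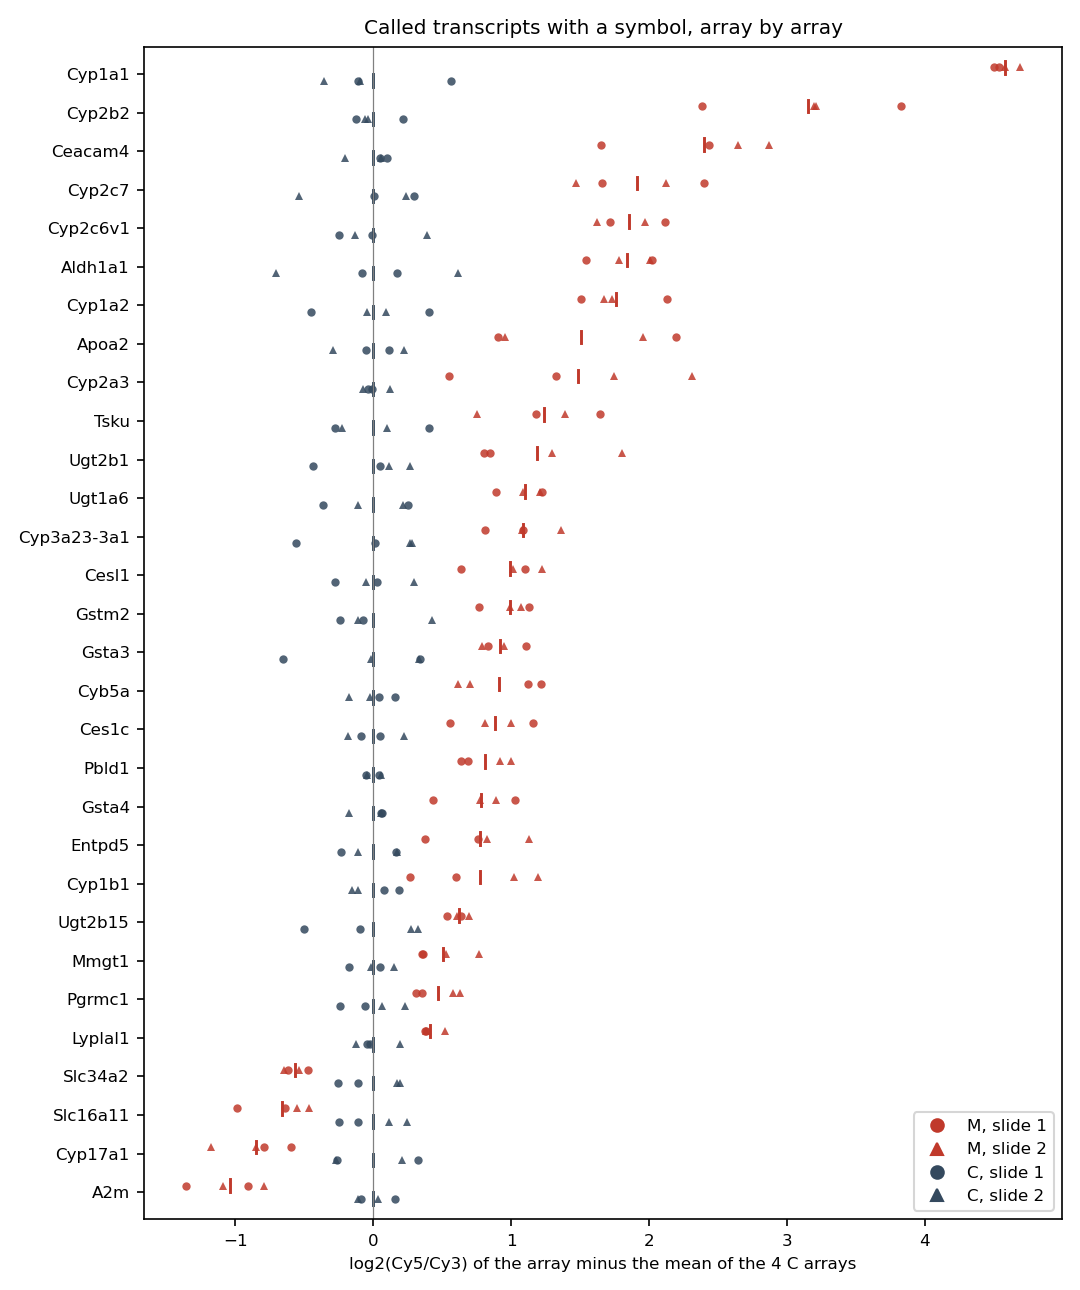
Log2(Cy5/Cy3) of each array minus the mean of the 4 C arrays for the 30 called genes, M above C in each row, circles for slide 1 and triangles for slide 2, ticks for group means. M and C points did not overlap in any row, and the distance between them ran from 4.58 for Cyp1a1 to 0.41 for Lyplal1 among the rises.

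At the threshold, Pgrmc1, Lyplal1 and Cyp1b1 were the last called genes (adjusted p = 0.0459, 0.0470 and 0.0497). Just outside stood Nampt, the rate-limiting enzyme of NAD salvage, at -0.46 ± 0.094 (adjusted p = 0.054). The export pump Abcc2 stood at 0.53 ± 0.11 (adjusted p = 0.0593). It passed with the replicate number as a block (adjusted p = 0.0350). Array weights (0.53, adjusted p = 0.0320) and leaving out M 2 (0.64, adjusted p = 0.00638) also let Abcc2 pass. Without such changes to the fit, none of 20 transporters of foreign compounds and bile passed. Nampt passed without 0.5M 4, C 2 or M 1. It also passed with the scanner's own ratios (-0.97, adjusted p = 0.00268), the authors' deposited table (-0.56, 0.0312) and array weights (-0.51, 0.0170).

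Of the 34 lists, 19 had no member called. The most one-sided counts among these were in the work of periportal hepatocytes, the cells near the portal vein that carry urea synthesis. Of 27 measured genes of the urea cycle and amino acid breakdown 25 were lower in M, against 6654 of 13146 transcripts. The median of the list was -0.19, against -0.0019 over all transcripts. On slide 1 the count was 17 of 27 (median -0.088) and on slide 2 it was 24 of 27 (-0.29). Leaving out 1 array moved the median of the urea cycle list between -0.22 and -0.10, the second without M 4, and with median centring of the arrays all 27 were lower (median -0.44, against -0.088 over all transcripts). Agxt, which detoxifies glyoxylate, came nearest to the threshold, with -0.52, -0.49, -0.47 and -0.97 in M, against -0.102, -0.017, -0.13 and -0.073 in C (adjusted p = 0.0811). M 4 was well below the other M arrays. Of 20 periportal genes 17 were lower (median -0.21), and all 20 were with median centring (-0.47). Among genes of both lists, Cps1, which makes carbamoyl phosphate, stood at -0.49 (adjusted p = 0.392), Ass1, which makes argininosuccinate, at -0.45 (0.293), and Asl, which splits it, at -0.37 (0.4098). Pericentral genes had a median of -0.034, with 10 of 17 lower. Cholesterol synthesis genes were lower in 21 of 25 (median -0.10), and the count was 15 of 25 on slide 2 alone (-0.026). Leaving out 1 array moved the median of cholesterol synthesis between -0.23 (without C 4) and -0.0072 (without C 2; -0.0195 without C 3), and median centring gave 25 of 25 lower (-0.32). Fatty acid oxidation (-0.041), fatty acid synthesis (-0.085), glucose handling (-0.061), bile acid synthesis (0.068), the clock (-0.019) and the cell cycle (-0.021) had medians near that of all transcripts, and with median centring these 6 medians lay between -0.29 and -0.038, against -0.088 over all.

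**Figure D4:**
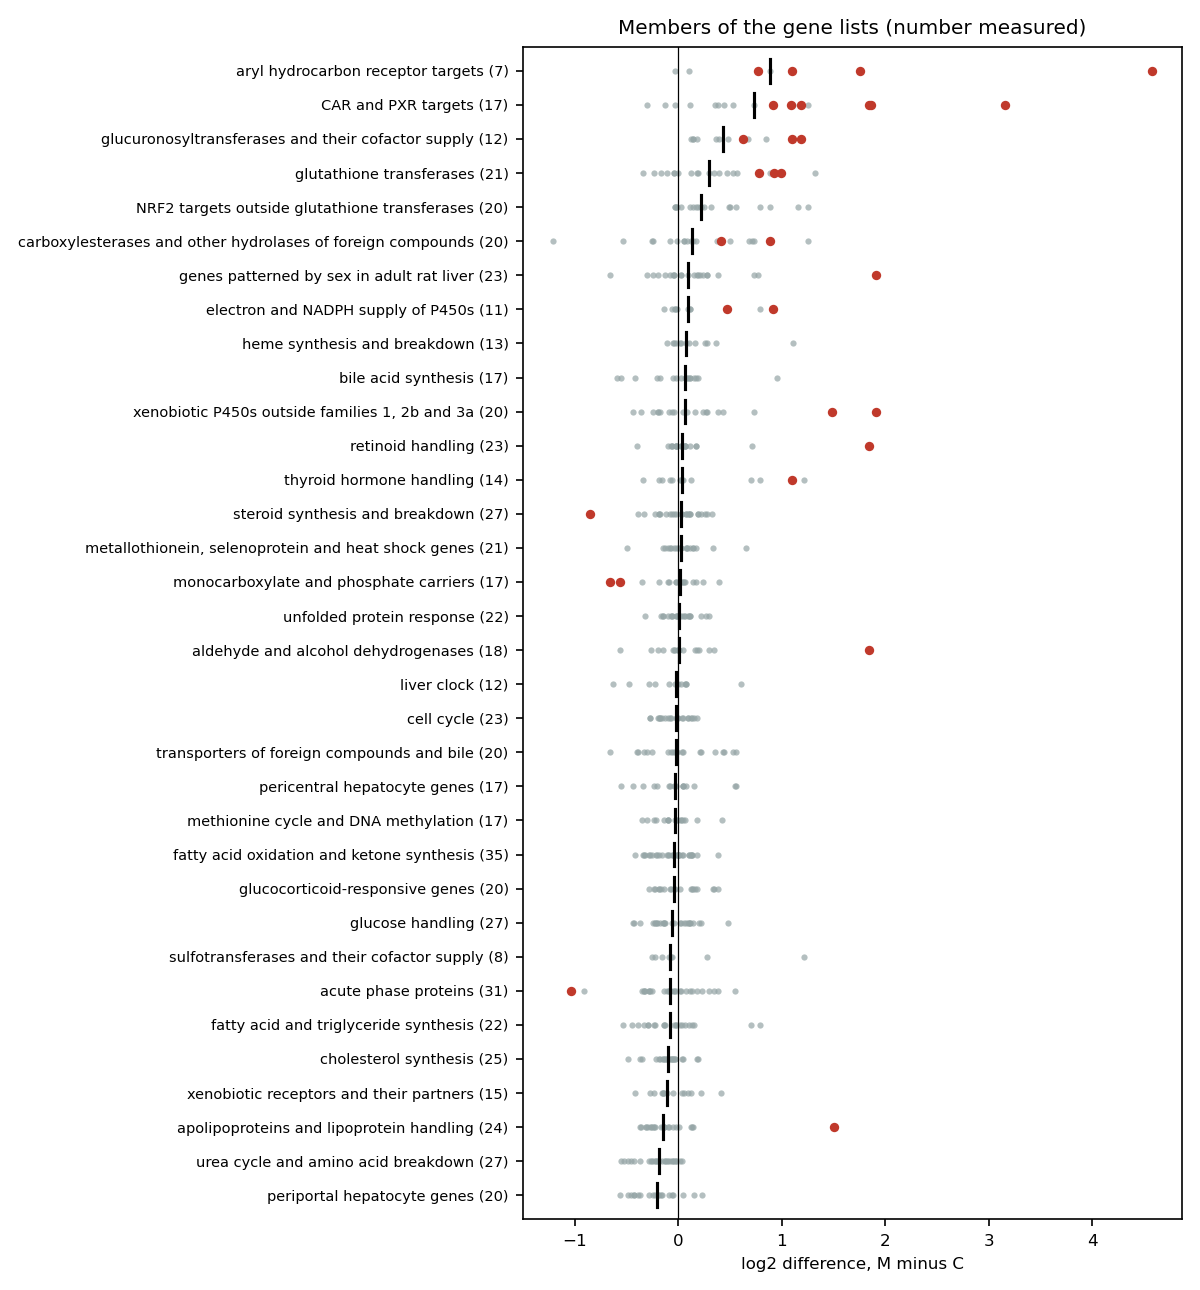
Log2 difference between M and C of every measured member of the 34 gene lists, with called members in colour and the list's median as a black bar. Lists of aryl hydrocarbon receptor, CAR and PXR targets and of glucuronosyl- and glutathione transferases lie at the top with most of the called members, and urea cycle and periportal genes at the bottom with none.

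Of the called transcripts 12 have no gene symbol in the name table used, so that members of the gene lists may be among them uncounted. XR_086356 rose by 1.54 ± 0.14 on the log2 scale and NM_017272 by 2.17 ± 0.401 (SE; adjusted p = 3.24e-05 and 0.0264). A_64_P113237 and A_64_P161448 stood at -0.58 ± 0.12 and -0.54 ± 0.104 (adjusted p = 0.0459 and 0.0373). The 4 M values of NM_017272 ran from 2.21 to 2.89, against -1.03 to 1.401 in C, so that its groups differed widely in spread.

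A fit of the M and C arrays alone called 32 transcripts and 19 of the 30 genes. It ended the calls of Cyp17a1 (adjusted p = 0.0945), Mmgt1 (0.1001), Gsta4 (0.0587), Apoa2 (0.0951), Entpd5 (0.0945), Ugt2b15 (0.157), Gsta3 (0.165), Slc34a2 (0.0945), Pgrmc1 (0.0836), Lyplal1 (0.165) and Cyp1b1 (0.192). With the scanner's own ratios 15 of the 30 genes stayed called. The others were Slc16a11 (0.0724), Cyp3a23-3a1 (0.0784), Cyp17a1 (0.0693), A2m (0.0649), Mmgt1 (0.0693), Tsku (0.0693), Gsta4 (0.0810), Apoa2 (0.0649), Gstm2 (0.104), Entpd5 (0.0903), Ugt2b15 (0.206), Gsta3 (0.0724), Cesl1 (0.119), Pgrmc1 (0.187) and Lyplal1 (0.244).

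Without the 5 arrays with other tissues, M rested on M 3 and M 4, and 29 transcripts were called, 19 of them among the 42. All 30 genes named above kept their direction, 14 kept their call, and the other 16 had adjusted p from 0.0517 (Apoa2) to 0.268 (Lyplal1). The differences moved by a median of 0.11 and at most by 0.55 (Cyp2a3, to 2.03). Among those no longer called were Pbld1 (0.0632), Aldh1a1 (0.0662), Slc16a11 (0.0620), Cyp3a23-3a1 (0.0595), A2m (0.142), Mmgt1 (0.0543), Tsku (0.0572), Gstm2 and Ces1c (0.138 each), Ugt2b15 (0.238), Gsta3 (0.104), Cesl1 (0.128), Slc34a2 (0.115) and Pgrmc1 (0.112). Without M 2 alone, the muscle-rich M array, 50 were called, 32 of them among the 42, and 25 of the 30 genes kept their call. Ugt2b15 (0.0621), Slc34a2 (0.0640), Pgrmc1 (0.0751), Lyplal1 (0.0814) and Cyp1b1 (0.0572) did not.

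M was also set against the other exposures, to ask which of its changes differed from theirs. The differences of M, 0.5M and AhR from C share the C arrays and are given side by side without a test of likeness. Cyb5a stood at 0.91, 0.56 and 0.31 in M, 0.5M and AhR, Ugt1a6 at 1.10, 0.65 and 0.38, and Tsku at 1.24, 0.67 and 0.51. Ugt2b1 stood at 1.19, 0.74 and -0.078, Cyp2a3 at 1.48, 0.66 and -0.11, and A2m at -1.04, -0.302 and 0.19. Ceacam4 stood at 2.40, 0.51 and 0.22 and Gsta4 at 0.78, 0.19 and 0.069. For the whole table, 2 transcripts were called in 0.5M against C (0.0152%) and 1 in AhR against C (0.00761%). In M against 0.5M, 2 transcripts were called (0.0152%; 6.75% at an unadjusted p under 0.05), both higher in M: Ceacam4 by 1.89 ± 0.18 and Cyp2c7 by 1.597 ± 0.20 (SE; adjusted p = 1.92e-04 and 0.00468). None was lower by the limma test (374 at an unadjusted p under 0.05, 2.84%). In M against AhR, 35 were called (0.266%), 26 higher and 9 lower in M. A2m was lower in M than in AhR by the test (-1.22 ± 0.16, adjusted p = 0.00183) and Ugt2b1 higher (1.27 ± 0.22, adjusted p = 0.0199).

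**Figure D5:**
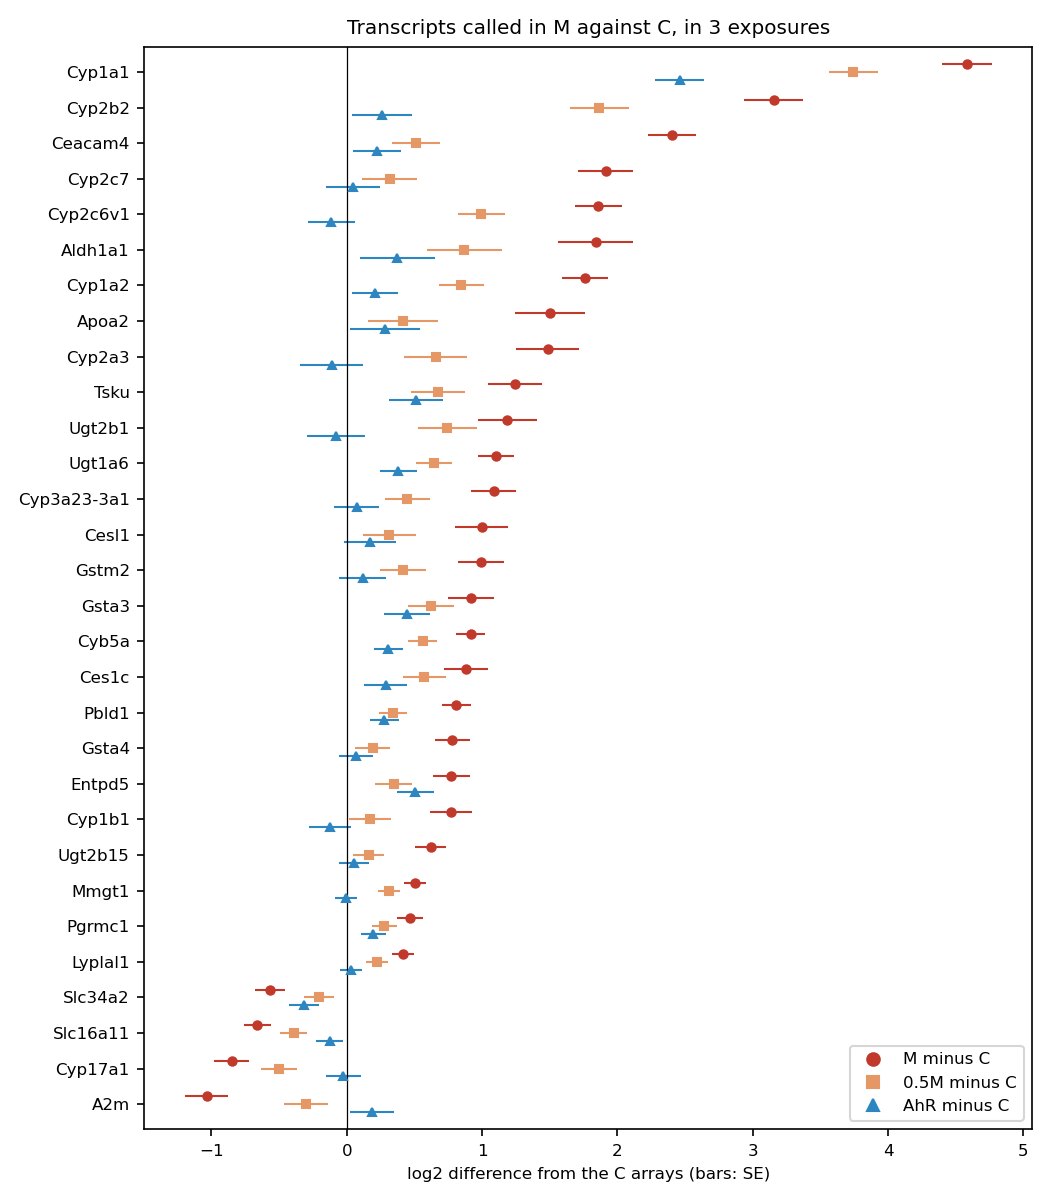
Log2 differences of M, 0.5M and AhR from C, with SE bars, for the 30 genes called in M against C. M lies farthest from 0 in each row, the genes having been chosen for their change in M, and Ceacam4 and Cyp2c7 show the gaps between M and 0.5M that passed the test. Cyp1b1 was above background on no C and no AhR array.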

How the data were processed

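Liver RNA was read on 2-colour Agilent arrays, 16 in all, 4 in each of 4 groups, with 2 arrays of every group on each of 2 slides. Per the file headers, the deposited scan files hold the median intensity of spot and local background in both dyes and a log10 ratio of red over green from Agilent Feature Extraction 10.7.3.1, and per the labels Cy5 is liver. Deposited quality marks of each spot were used to leave out outliers and to judge signal over background. The authors' value table holds log2 ratios; each column followed its own scan (r 0.977 to 0.998, at most 0.878 with any other), its centring is near 0, and its normalization is not given in the sources used here. No probe was saturated on every array of a group.

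From the intensities, background was corrected by normexp with an offset of 50, the dyes of an array were balanced by a loess curve to which control spots gave no weight, and spots of a probe were averaged (limma 3.58.1, R 4.3.3). A probe was kept when the scanner marked at least 50% of its spots as well above background in Cy5, which 4 or more of the 16 arrays had to show. Of 14524 such probes, 12 were left out for missing values, and the brightest probe of each gene or accession left 13146 transcripts, 8562 with a symbol. Of 30367 probes, 18004 matched a symbol through the RefSeq table and 12363 did not. One limma model over all 16 arrays had a mean per group and the slide as a term, and two-sided p-values were adjusted over 13146 transcripts (Benjamini-Hochberg, 0.05), as every adjusted p in the text. It was tested on simulated data. The number of arrays limits the precision.

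Named genes are those with a symbol called in M against C, up to 3 called members of each list or else its member with the smallest p, and the 3 just outside the threshold, of which 1 is not reported here. Other list members were named after their values were seen. The members and lists were chosen with earlier results of these data known. Alternatives were other normalizations, filters, probe rules, slides, array sets, array weights, a fit of only 2 groups, and a replicate block. Same-numbered arrays of M and C deviated together (correlations 0.347, 0.184, 0.349 and 0.204), as did those of M and AhR (0.458, 0.13, 0.339 and 0.332). M 4 went with C 3 (0.205) as closely as with C 4. Same-numbered arrays of M and 0.5M did not deviate together (0.045, -0.227, 0.379 and -0.177). The labels do not say what the number marks. The model with the slide term does not pair arrays, and only the replicate block does. With the slide's own shift removed, which leaves 1 value per slide, the correlations were 0.199 and 0.1998 for M and C, 0.197 and 0.216 for M and AhR, and -0.173 and 0.0678 for M and 0.5M.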

Additional observations from a re-analysis of the deposited data

Results flagged for a closer look

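Single arrays stood far from the other 3 of their group in 6 cases among the named genes, on the log2(Cy5/Cy3) scale. Such gaps come up by chance in about 1 in 20 groups, and 49 genes in both groups were looked at. Lyplal1 on M 4 was 0.50, the other M arrays 0.35 to 0.36. Agxt on M 4 was -0.97, the others -0.52 to -0.47. Ephx1 on M 2 was -0.59, the others 0.44 to 0.65, and on C 3 it was -0.32, the others -1.29 to -1.21. Ceacam4 on C 3 was -0.53, the others -0.27 to -0.22. Gsta4 on C 4 was -0.03, the others 0.20 to 0.21.

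Tests of M against the other exposures found differences in the response of called genes (limma, adjusted p under 0.05, differences on the log2 scale). Against 0.5M, Ceacam4 differed by 1.89 and Cyp2c7 by 1.6. Against AhR, the P450s Cyp2b2 (2.9), Cyp1a1 (2.12), Cyp2c6v1 (1.97), Cyp2c7 (1.87), Cyp2a3 (1.6), Cyp1a2 (1.55) and Cyp3a23-3a1 (1.01) were higher in M. Cyp1b1, above background on 0 AhR arrays, was at least 1.83-fold higher in M (its fitted difference of 0.9 is no bound). Higher in M than in AhR were also Ceacam4 (2.18), Aldh1a1 (1.46), Ugt2b1 (1.27), Gstm2 (0.87), Ugt1a6 (0.72), Gsta4 (0.71), Cyb5a (0.61), Pbld1 (0.53) and Mmgt1 (0.51). Lower in M than in AhR were A2m (-1.22), Cyp17a1 (-0.83) and Slc16a11 (-0.54).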

How the results depend on the processing

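The counts of called transcripts in M against C, M against 0.5M and M against AhR (42, 2 and 35) moved by over 1.5 times in these settings. Median centring of the arrays left 1, 0 and 0, and the scanner software's own ratios left 20 and 19 in the comparisons with C and AhR. Slide 1 alone gave 4, 0 and 0, and slide 2 alone 7, 4 and 13. Array weights gave 66, 4 and 64. A fit of only 2 groups gave 19 in M against AhR. Without the 5 arrays with other tissues the counts were 29, 4 and 19. With the replicate block they were 41, 7 and 30, where the numbers of M and 0.5M do not pair. Among genes that the results name by the stated rule, the block changed no call apart from those given there. Other list members named in the results were not followed singly with the block. Leaving out 1 array gave 22 to 53 in M against C (25 without C 1, 22 without C 4, 27 without M 1, 22 without M 3), 2 to 4 in M against 0.5M (4 without M 2) and 10 to 35 in M against AhR (16 without AhR 3, 10 without AhR 4, 18 without M 1, 12 without M 3, 13 without M 4). Without C 2 the 45 calls split into 27 higher and 18 lower. The other settings tried, including the authors' deposited table (38, 3 and 25) and no filter on dim probes (28, 2 and 26), stayed within 1.5 times. The 30 named called genes kept their sign in all 899 values over 30 settings, and 243 of these were not called. The cause of each change was not tested, except that fits on 1 slide or fewer arrays have fewer arrays by construction. Signal over background limits Cyp1b1, Slc34a2, Cyp2a3 and Ceacam4, which were above background on part of the M or C arrays.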

Other observations

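Some called genes lie near each other in the GRCr8 annotation. Both stretches below were chosen to begin and end at called genes, so the calls of their end genes were fixed in advance. From Ceacam4 to Cyp2a3 on chromosome 1 the annotation lists 65 genes, of which 25 were measured. Called in M against C were 3 of the 25 (the ends Ceacam4 and Cyp2a3, and Cyp2b2 between them), against 0.319% of all transcripts. The other 22 had log2 differences between -0.171 and 0.437. From Ugt2b15 to Ugt2b1 on chromosome 14, 4 of 9 genes were measured, and all 4 were higher in M, against 6492 of 13146 transcripts. The 2 not called, Ugt2b35 and Ugt2b37, stood at 0.36 and 0.674. Whether called genes lie closer together than other genes was not tested. Probes of neighbouring family members may bind each other's RNA, which was not tested.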
